A study of Mus musculus with 4 samples.

Results

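The genes described here make, move and use cholesterol. The list of 41 genes was set by symbol: 8 enzymes of the mevalonate arm of synthesis, 11 enzymes of the sterol arm, 5 regulators, 11 genes of transport, uptake and turnover, and 6 genes of fatty acid synthesis and desaturation. Of these 41 genes, 37 were measured in the dentate gyrus (DG), out of 7935 genes measured in all. A gene counted as measured where a probe set named for it alone averaged a signal of 50 or more on the 4 arrays, and its brightest probe set was used. Acat2, the thiolase that opens the pathway, Insig1, which holds sterol regulatory proteins in the endoplasmic reticulum, and Soat1, which esterifies cholesterol, had no probe set named for that gene alone. Lrp8, a receptor for apolipoprotein E and reelin, did not pass the filter, with signals of 28.5 with ECS, 22.4 with sham, 42.4 with fluoxetine and 35.3 with vehicle.

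RNA was from male mice labelled C57Bl/6 (C57BL/6J or C57BL/6N in the methods), bought at 8 weeks of age, and each array carried the pooled RNA of 1 group, from which 100 ng was amplified. ECS mice had 11 sessions of electroconvulsive stimulation, a model of electroconvulsive therapy, given 4 times a week under isoflurane, and sham mice were handled in the same way with no shock. The labels put dissection at 6 h after the last session and the methods put it at 24 h. Fluoxetine mice drank the selective serotonin reuptake inhibitor (SSRI) at 22 mg/kg per day for 4 weeks in water with 0.2% saccharin, and vehicle mice were their controls. The fluoxetine pool was limited to mice chosen for small frequency facilitation at the mossy fiber synapse (n = 3). The arrays compare ECS with sham and fluoxetine with vehicle, to ask how far both treatments change the same genes in the DG.

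Cholesterol is built from acetyl-CoA. The mevalonate arm ends in farnesyl diphosphate, which also feeds protein prenylation, and the sterol arm joins that unit into squalene, closes the rings and trims them to cholesterol. In most cells both arms are under the transcription factor SREBP2, which SCAP escorts out of the endoplasmic reticulum when sterols are low, while the INSIG proteins hold the complex back. The blood-brain barrier keeps lipoprotein cholesterol out, so the brain makes its own, largely in glia in the adult, and clears the surplus as an oxysterol made in neurons.

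The promoters shown next belong to members at least 1.5-fold higher with both treatments, and they carry motifs that such genes are known to share. They are from RefSeq (GRCm38.p6) and stop just before the annotated transcript start. Capitals mark the sterol regulatory element TCACNCCAC, where N is any base, and the CCAAT box, which reads ATTGG on the other strand. Hmgcs1 is given from 250 bases before its start, since it holds both motifs, and the others from 150 bases before.
Hmgcs1: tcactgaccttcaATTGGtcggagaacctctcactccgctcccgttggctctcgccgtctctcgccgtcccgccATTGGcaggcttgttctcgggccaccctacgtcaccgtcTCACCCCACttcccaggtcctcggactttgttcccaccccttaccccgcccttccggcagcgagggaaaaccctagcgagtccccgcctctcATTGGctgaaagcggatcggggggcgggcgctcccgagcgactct
Idi1: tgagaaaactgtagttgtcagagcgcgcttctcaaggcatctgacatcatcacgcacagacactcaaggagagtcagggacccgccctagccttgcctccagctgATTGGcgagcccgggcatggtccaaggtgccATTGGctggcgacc
Mvd: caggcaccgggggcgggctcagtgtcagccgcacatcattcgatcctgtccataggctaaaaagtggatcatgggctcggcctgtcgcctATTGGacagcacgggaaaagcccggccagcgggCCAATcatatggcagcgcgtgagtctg
Cyp51: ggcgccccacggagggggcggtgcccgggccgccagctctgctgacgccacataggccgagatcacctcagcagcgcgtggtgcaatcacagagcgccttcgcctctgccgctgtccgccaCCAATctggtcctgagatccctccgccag
Msmo1: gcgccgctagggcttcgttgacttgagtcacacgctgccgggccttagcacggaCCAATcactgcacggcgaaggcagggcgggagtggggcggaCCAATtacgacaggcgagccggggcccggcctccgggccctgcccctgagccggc
Nsdhl: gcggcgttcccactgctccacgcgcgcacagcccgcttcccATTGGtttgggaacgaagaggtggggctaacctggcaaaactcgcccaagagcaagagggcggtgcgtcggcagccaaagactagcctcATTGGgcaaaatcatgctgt
Mvk, the gene of an enzyme further along the same arm as Hmgcs1, is given as a contrast and was chosen after its values were seen. It holds more CCAAT boxes than any of these, and its 1 probe set past the filter was not 1.5-fold higher with either treatment.
Mvk: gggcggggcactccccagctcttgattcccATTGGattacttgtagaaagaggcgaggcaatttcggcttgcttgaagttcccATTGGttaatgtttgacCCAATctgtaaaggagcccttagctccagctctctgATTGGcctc
The Hmgcs1 promoter lies at chr13:119690101-119690350 on the forward strand, that of Idi1 at chr13:8885456-8885605 on the forward strand, that of Mvd at chr8:122443423-122443572 on the reverse strand and that of Cyp51 at chr5:4104698-4104847 on the reverse strand. The Msmo1 stretch is chr8:64733579-64733728 on the reverse strand, the Nsdhl stretch chrX:72918371-72918520 on the forward strand and the Mvk stretch chr5:114444119-114444263 on the forward strand. The promoter of Mvk starts a few bases from the start of the gene in the annotation, and in the others both starts are the same. No promoter was found for Fdft1, Sqle and Stard4, the other members higher with both treatments.

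In windows of 250 bases before to 50 bases after the start, with both strands searched, 28 of the 37 measured members had a promoter. A member with several promoters was counted if any held the motif, as for Dhcr7, with CCAAT boxes in promoter 3 of 3 only. A CCAAT box was in 15 of the 15 synthesis enzymes, against 2810 of 6480 measured genes (43.4%) and 37.4% of all 32851 promoters. It was in 3 of 4 regulators, 3 of 6 transport genes and 1 of 3 fatty acid genes. All 6 members higher with both treatments had the box, and so did 16 of the 22 other members (72.7%), so the box is in genes with and without a higher signal. At least 2 boxes, a count chosen after the matches were seen, were in 10 of the 15 synthesis enzymes (66.7%) and 17.5% of measured genes. The sterol regulatory element in the form searched was in Hmgcs1 alone of the 28, 137 bases before the start, and in 1.47% of measured genes and 1.24% of all promoters. The GC box GGGCGG was in 13 of the 15 synthesis enzymes (86.7%), 71.9% of measured genes and 35.7% of all promoters. In the members, 0 pairs of matches of different motifs overlapped. These are matches of letters, not binding sites.

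**Figure D1:**
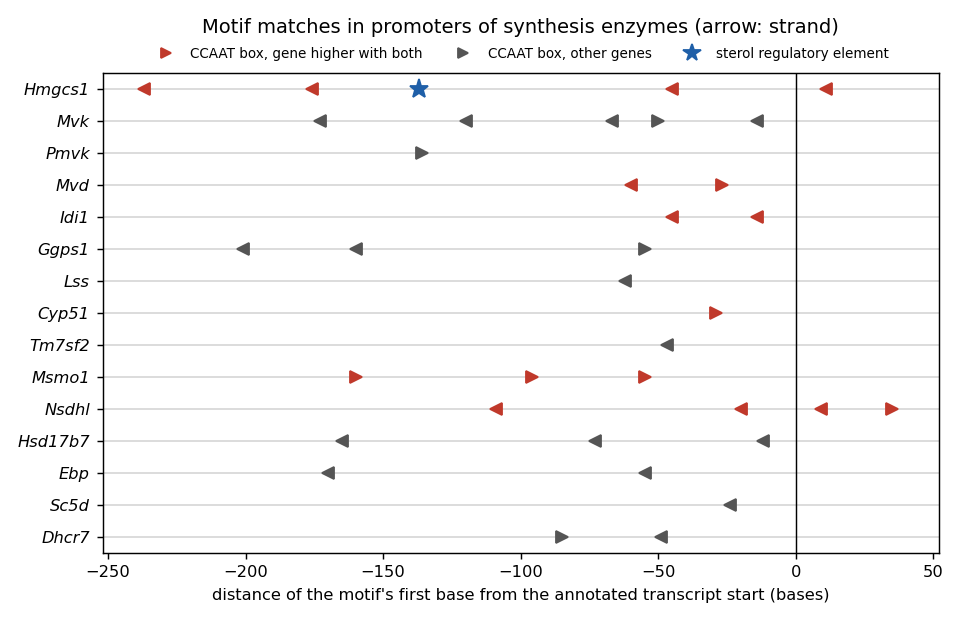
Motif matches in the promoters of the 15 synthesis enzymes that have one, with the distance of the first base of each match from the transcript start in bases on the x axis and 1 gene per row; arrows give the strand, and the star is the sterol regulatory element of Hmgcs1 at -137. Where a gene has several promoters, a promoter with a CCAAT box was drawn, as for Dhcr7, where only promoter 3 of 3 holds it. CCAAT boxes stand in every row, in genes higher with both treatments (red) and in the others (grey) alike.

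Before the genes, the scale of the arrays has to be set out. Signals are as deposited and the arrays have no common scale: over the probe sets past the filter, the median log2 ratio was -0.10 for ECS over sham, 0.12 for fluoxetine over vehicle and -0.50 for sham over vehicle. A member was therefore compared only within its own pair, and a change of at least 1.5-fold was called. Setting each array to its median moves every ECS ratio by 0.11 and every fluoxetine ratio by -0.12 on the log2 scale. Both forms are given for 1.5-fold counts of members that differ and wherever the call of a member differs. The sign also turns for Pmvk with ECS and for Mvk, Srebf1, Npc1, Abcg1, Vldlr, Fads2 and Fasn with fluoxetine. As deposited, these ratios were within 0.12 of 0. With 1 array per group there is no replicate error and no test. In its place stands the control spread, a robust SD (scaled median absolute deviation) of centred log2 sham over vehicle among the 500 probe sets closest in signal, which was 0.11 to 0.30 among members. In the labelled tissue, Prox1, a granule cell (GC) identity factor, was measured on all 4 arrays, and 4 of 5 measured GC markers were at least 1.5-fold lower with both treatments (3 with each array set to its median), with Calb1 at -1.45 with ECS and -2.00 with fluoxetine. Over all genes, 1.9% were lower with both (1.88% with each array set to its median).

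Of the 37 members, ECS had 11 at least 1.5-fold higher, fluoxetine also had 11, and 9 of these were the same genes. The shares over all genes were 3.84% (ECS), 8.51% (fluoxetine) and 2.79% (both). Only Insig2 was lower, and only with ECS, against 6.47% of all genes; no member was lower with fluoxetine, against 3.26% of all genes, and none with both, against 1.9%. The 9 higher with both were Hmgcs1, Mvd, Idi1, Fdft1, Sqle, Cyp51, Msmo1, Nsdhl and Stard4, that is 8 synthesis enzymes and 1 sterol carrier. The study had already reported that genes increased by both treatments were associated with cholesterol metabolism. These counts come from the same data and are not separate support for that result. The 37 had a median log2 ratio of 0.35 for ECS over sham (all genes, -0.10) and 0.28 for fluoxetine over vehicle (all genes, 0.12), and that of their centred sham over vehicle ratios was 0.02. In RNA of whole tissue, a change in the number of cells of a type and a change in RNA per cell cannot be told apart.

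With each array set to its median, ECS had 14 members higher (5.34% of all genes), fluoxetine 6 (5.82%), and 6 were higher with both (3.04%). No member was then lower with ECS (4.18% of all genes), with fluoxetine (5.13%) or with both (1.88%). Of the 9 genes, 5 stayed past 1.5-fold with both: Hmgcs1, Mvd, Sqle, Msmo1 and Stard4. Cyp51, Fdft1, Idi1 and Nsdhl then had fluoxetine log2 ratios of 0.56, 0.53, 0.51 and 0.56, just short of 1.5-fold, and Srebf2 joined the list.

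**Figure D2:**
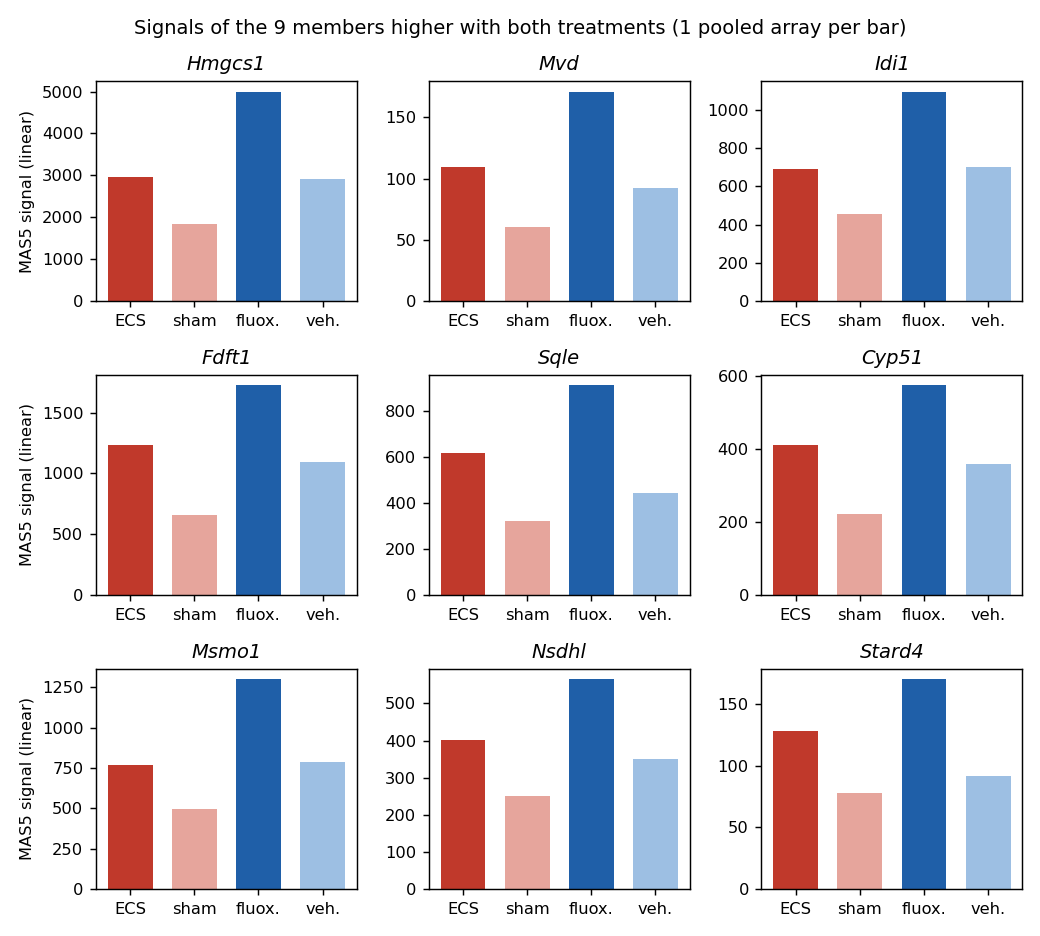
MAS5 signal (linear scale from 0) of the 9 members at least 1.5-fold higher with both treatments, 1 panel per gene and 1 bar per array of pooled RNA, in the order ECS, sham, fluoxetine and vehicle, with no error bars since each group has 1 array. In each panel the ECS bar is above the sham bar and the fluoxetine bar above the vehicle bar, from Idi1 with 692.5 against 454.2 to Sqle with 913.6 against 443.8.

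In the mevalonate arm, the same 3 of 7 measured enzymes were higher with each treatment (all genes, 2.79% with both). The median log2 ratio was 0.39 for ECS over sham and 0.25 for fluoxetine over vehicle. With each array set to its median, 3 were higher with ECS (5.34%) and 2 of these with fluoxetine too (3.04%), at medians of 0.50 and 0.12. Hmgcs1, which makes HMG-CoA in the cytosol, had a signal of 2958.2 with ECS, against 1837.6 with sham, and 5000.4 with fluoxetine, against 2918.7 with vehicle. Its log2 ratios were 0.69 and 0.78, at a control spread of 0.13. With each array set to its median the ratios were 0.80 and 0.65, against -0.16 for sham over vehicle on the same scale. Mvd, which makes isopentenyl diphosphate by decarboxylation, had 109.3 with ECS, against 60.2 with sham, and 171.0 with fluoxetine, against 92.0 with vehicle, or log2 ratios of 0.86 and 0.89. It was the most changed enzyme of this arm, at a control spread of 0.28. Idi1, which isomerises isopentenyl diphosphate, had 692.5 with ECS, against 454.2 with sham, and 1096.1 with fluoxetine, against 703.7 with vehicle, at log2 ratios of 0.61 and 0.64.

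The kinases between these steps were short of 1.5-fold in both comparisons. Mvk, which phosphorylates mevalonate, had 70.4 with ECS, against 95.4 with sham, and 122.2 with fluoxetine, against 117.5 with vehicle, at log2 ratios of -0.44 and 0.06. Pmvk, the kinase that follows it, had log2 ratios of -0.08 and 0.25. Mvk had the widest control spread of all members, 0.30, and its ECS ratio was outside it. The other Mvk probe set averaged a signal of 47.7, just below the filter, and went the other way with ECS. Its log2 ratios were 0.45 with ECS and 0.62 with fluoxetine, the latter past 1.5-fold. Fdps, which joins the units into farnesyl diphosphate, had 737.2 with ECS, against 560.7 with sham, and 883.5 with fluoxetine, against 746.2 with vehicle, at log2 ratios of 0.39 and 0.24. Ggps1, which extends farnesyl diphosphate towards protein prenylation and away from sterols, was lower than control in both comparisons but short of 1.5-fold. It had 179.5 with ECS, against 231.6 with sham, and 278.0 with fluoxetine, against 334.5 with vehicle, at log2 ratios of -0.37 and -0.27.

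In the sterol arm, 6 of 11 enzymes were higher with ECS (all genes, 3.84%) and 5 of these with fluoxetine too (2.79%). The median log2 ratios were 0.64 and 0.53. Both enzymes at its entry were among the 5. With each array set to its median, 7 were higher with ECS (5.34%) and 2 of these with fluoxetine too (3.04%), at medians of 0.75 and 0.40. Fdft1, the squalene synthase that commits farnesyl diphosphate to sterols, had 1236.7 with ECS, against 659.3 with sham, and 1723.3 with fluoxetine, against 1094.3 with vehicle, at log2 ratios of 0.91 and 0.66. Sqle, the squalene epoxidase, a tightly regulated step, had 618.3 with ECS, against 322.9 with sham, and 913.6 with fluoxetine, against 443.8 with vehicle. Its log2 ratios of 0.94 and 1.04 were the largest of all members in both comparisons. In the signals as deposited, Sqle with fluoxetine was the only brightest probe set of a member at least 2-fold higher. With each array set to its median, Sqle (1.05) and Fdft1 (1.02) were past 2-fold with ECS instead. Lss, which closes the rings and is the step right after Sqle, was short of 1.5-fold, with 132.9 with ECS, against 147.8 with sham, and 237.9 with fluoxetine, against 206.1 with vehicle. Its log2 ratios of -0.15 and 0.21 were within its control spread of 0.23, while its other probe set past the filter had 0.19 and 0.58, just short of 1.5-fold with fluoxetine.

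The enzymes that strip methyl groups from lanosterol were higher than control in both treated pools. Cyp51, which takes off the first, had 410.7 with ECS, against 221.9 with sham, and 575.6 with fluoxetine, against 359.1 with vehicle, at log2 ratios of 0.89 and 0.68. Msmo1, the oxidase of the remaining methyl groups, had 767.0 with ECS, against 492.5 with sham, and 1300.4 with fluoxetine, against 787.6 with vehicle, at log2 ratios of 0.64 and 0.72. Nsdhl, the dehydrogenase that works after it, had 400.9 with ECS, against 251.5 with sham, and 565.7 with fluoxetine, against 350.7 with vehicle, at log2 ratios of 0.67 and 0.69. All of these were past 1.5-fold with both treatments, and ECS and fluoxetine ratios were closest in Nsdhl. Hsd17b7, the ketoreductase that completes the removal, had 162.7 with ECS, against 99.5 with sham, and 211.1 with fluoxetine, against 158.2 with vehicle, at log2 ratios of 0.71 and 0.42. It was past 1.5-fold with ECS alone. Tm7sf2, a sterol reductase at the same stage, was higher by less, at log2 ratios of 0.35 and 0.36.

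The last steps changed less, and the final reductase split between the treatments. Ebp, the sterol isomerase, had log2 ratios of 0.35 and 0.36, and Sc5d, the desaturase after it, 0.42 and 0.53. Both were short of 1.5-fold. Dhcr7, which reduces the last double bond on the way to cholesterol, had 274.6 with ECS, against 187.5 with sham, and 211.5 with fluoxetine, against 265.1 with vehicle. It was the only synthesis enzyme higher than control with ECS and lower with fluoxetine, at log2 ratios of 0.55 and -0.33. Both were outside its control spread of 0.21 and short of 1.5-fold. With each array set to its median they were 0.66 and -0.45, and the ECS ratio was then past 1.5-fold.

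Over both arms, 9 of 18 enzymes were past 1.5-fold upward with ECS (all genes, 3.84%) and 8 of these also with fluoxetine (2.79%). No enzyme was past it downward. Their log2 ratios ran from -0.44 to 0.94 with ECS and from -0.33 to 1.04 with fluoxetine, and 14 of 18 were above 0 with ECS and 16 with fluoxetine, and 15 in each were above the median over all genes. The median was 0.58 for ECS over sham, 0.47 for fluoxetine over vehicle and -0.01 for centred sham over vehicle. After centring, sham was below vehicle by more than the control spread in Fdft1 (-0.23), Sc5d (-0.21), Cyp51 (-0.19), Msmo1 (-0.17) and Hmgcs1 (-0.16). It was above vehicle by more than that spread in Ebp (0.22). With each array set to its median, 10 enzymes were higher with ECS, and 4 of the 10 with fluoxetine too, at medians of 0.69 and 0.35. By brightest probe sets, the pathway thus did not move as a block. Enzymes past 1.5-fold stood next to Mvk, Pmvk, Ggps1 and Lss, whose ratios stayed near or below 0 with ECS.

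**Figure D3:**
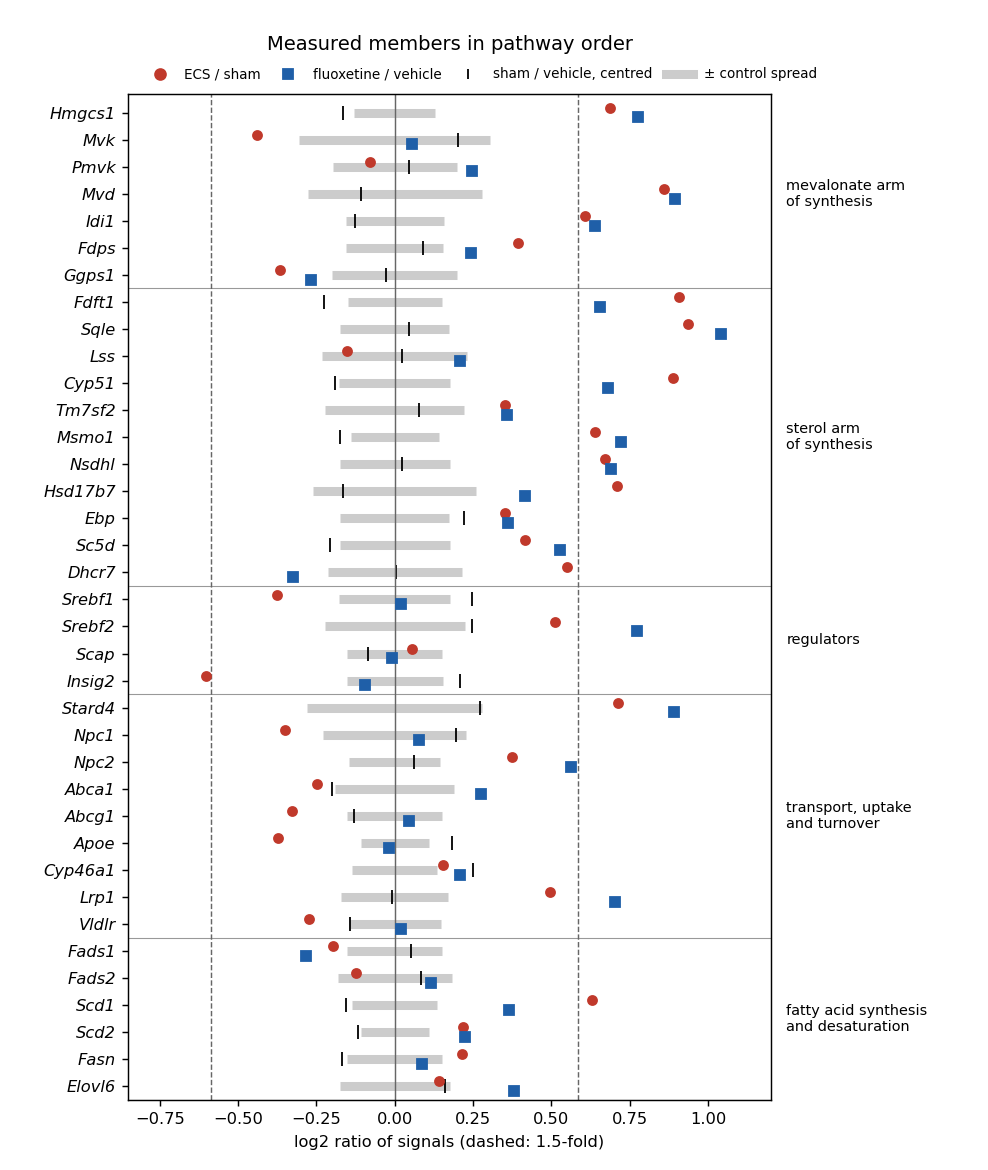
Log2 ratio of signals (x axis) of the 37 measured members in pathway order, for ECS over sham (circles) and fluoxetine over vehicle (squares), with the centred sham over vehicle ratio (ticks), the control spread on each side of 0 (grey bars) and 1.5-fold (dashed lines). Synthesis enzymes reach 1.04 (Sqle), while most transport genes stay between the dashed lines.

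Among the regulators, no common direction was seen, with medians of -0.16 for ECS and 0.00 for fluoxetine over 4 genes (log2 ratios). Srebf2, the gene of SREBP2, had 181.4 with ECS, against 127.3 with sham, and 260.6 with fluoxetine, against 152.3 with vehicle. It was higher in both treated pools, at log2 ratios of 0.51 and 0.77, and past 1.5-fold with fluoxetine only. Srebf1, whose product acts more on fatty acid genes, had 270.7 with ECS, against 350.9 with sham, and 425.1 with fluoxetine, against 419.6 with vehicle, at log2 ratios of -0.37 and 0.02. The pair of SREBP genes therefore went opposite ways with ECS. Sham and vehicle differed in both, by 0.25 after centring.

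Insig2, which retains the SCAP complex, had 449.1 with ECS, against 681.3 with sham, and 782.2 with fluoxetine, against 835.5 with vehicle. It was the only member at least 1.5-fold lower, with a log2 ratio of -0.60 with ECS, against -0.10 with fluoxetine. The call rests on the brightest of 3 probe sets, whose ECS ratios ran from -0.60 to -0.07, and it is lost with each array set to its median (-0.49). Scap, the escort itself, had 598.6 with ECS, against 576.6 with sham, and 861.3 with fluoxetine, against 867.0 with vehicle. Its log2 ratios were 0.05 and -0.01, or 0.16 and -0.13 with each array set to its median, at a control spread of 0.15.

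Of the 9 measured genes of transport, uptake and turnover, 1 was higher with ECS (all genes, 3.84%) and 2 with fluoxetine (8.51%). The median of their log2 ratios stood at -0.25 for ECS and 0.21 for fluoxetine, or -0.14 and 0.08 with each array set to its median, and the ECS median was -0.046 with no signal filter. After centring, 2 were higher with ECS and 1 with fluoxetine, as Lrp1 gained the ECS call (0.60) and lost that with fluoxetine (0.58). Stard4, which carries sterols through the cytosol, was the exception, with 128.1 with ECS, against 78.2 with sham, and 170.2 with fluoxetine, against 91.8 with vehicle, at log2 ratios of 0.71 and 0.89. Its values resembled those of the synthesis enzymes, at a control spread of 0.28. Lrp1, an endocytic receptor for apolipoprotein E, had 524.3 with ECS, against 372.0 with sham, and 864.9 with fluoxetine, against 530.9 with vehicle, at log2 ratios of 0.50 and 0.70. Sham and vehicle differed in it by -0.01 after centring. Npc2, which hands cholesterol on inside lysosomes, had 925.6 with ECS, against 714.0 with sham, and 1433.2 with fluoxetine, against 970.5 with vehicle, at log2 ratios of 0.37 and 0.56. Its membrane partner Npc1 was not higher with it, at log2 ratios of -0.35 and 0.08.

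Apoe, Abca1, Abcg1 and Vldlr were lower than sham with ECS, all short of 1.5-fold, unlike the apolipoprotein E receptor Lrp1. Their direction with fluoxetine depended on the scale for Abcg1 and Vldlr. Apoe, the main apolipoprotein of the brain, had 4357.0 with ECS, against 5639.7 with sham, and 6960.9 with fluoxetine, against 7042.3 with vehicle, at log2 ratios of -0.37 and -0.02. Abca1, the pump that loads it, had 305.5 with ECS, against 362.8 with sham, and 716.0 with fluoxetine, against 591.5 with vehicle, at log2 ratios of -0.25 and 0.28. Abcg1, another efflux pump, had 431.2 with ECS, against 541.3 with sham, and 866.8 with fluoxetine, against 840.2 with vehicle. Vldlr, a receptor for apolipoprotein E and reelin, had log2 ratios of -0.27 and 0.02. The ECS pool was thus below sham in Apoe, Abca1, Abcg1 and Vldlr, and with each array set to its median these ECS ratios were -0.26, -0.14, -0.22 and -0.16, of which that of Abca1 was within its control spread of 0.19. The fluoxetine ratios were then -0.14 for Apoe, 0.15 for Abca1, -0.08 for Abcg1 and -0.11 for Vldlr, so those of Abcg1 and Vldlr turned from above 0 to below it. Cyp46a1, the neuronal hydroxylase through which cholesterol leaves the brain, was slightly above its controls, with 864.7 with ECS, against 776.3 with sham, and 1069.7 with fluoxetine, against 925.6 with vehicle, at log2 ratios of 0.16 and 0.21. With each array set to its median these were 0.26 and 0.08, and sham over vehicle was 0.25.

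The fatty acid genes, which SREBP proteins also drive in liver, gave 1 call in 6 genes, higher with ECS (all genes, 3.84%). Scd1, a desaturase of stearate, had 916.8 with ECS, against 591.9 with sham, and 1202.8 with fluoxetine, against 934.6 with vehicle, at log2 ratios of 0.63 and 0.36. Its brain paralogue Scd2 had 0.22 and 0.23, and Fasn, the fatty acid synthase, 0.21 and 0.09. Scd1 was thus past 1.5-fold with ECS, while the synthase that feeds it was not. Elovl6, which lengthens its substrates, had log2 ratios of 0.14 and 0.38. Of the desaturases of polyunsaturated fats, Fads1 was below its controls in both comparisons, at -0.20 and -0.28. Fads2 had -0.12 and 0.12, both within its control spread of 0.18. The median of the 6 was 0.18 with ECS and 0.17 with fluoxetine.

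Members just outside 1.5-fold were Dhcr7 (0.55), Srebf2 (0.51) and Lrp1 (0.50) with ECS, and Npc2 (0.56) and Sc5d (0.53) with fluoxetine. Just inside were Idi1 (0.61) and Scd1 (0.63) with ECS and Idi1 (0.64) and Fdft1 (0.66) with fluoxetine. A small shift in scale moves these members across the line. Across the 37 members, the ECS and the fluoxetine log2 ratios had a Pearson r of 0.79 and a Spearman rho of 0.82, against 0.63 and 0.49 across the 7935 genes. These describe genes on the same 4 arrays, the pairs share no array, and genes are not independent replicates.

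**Figure D4:**
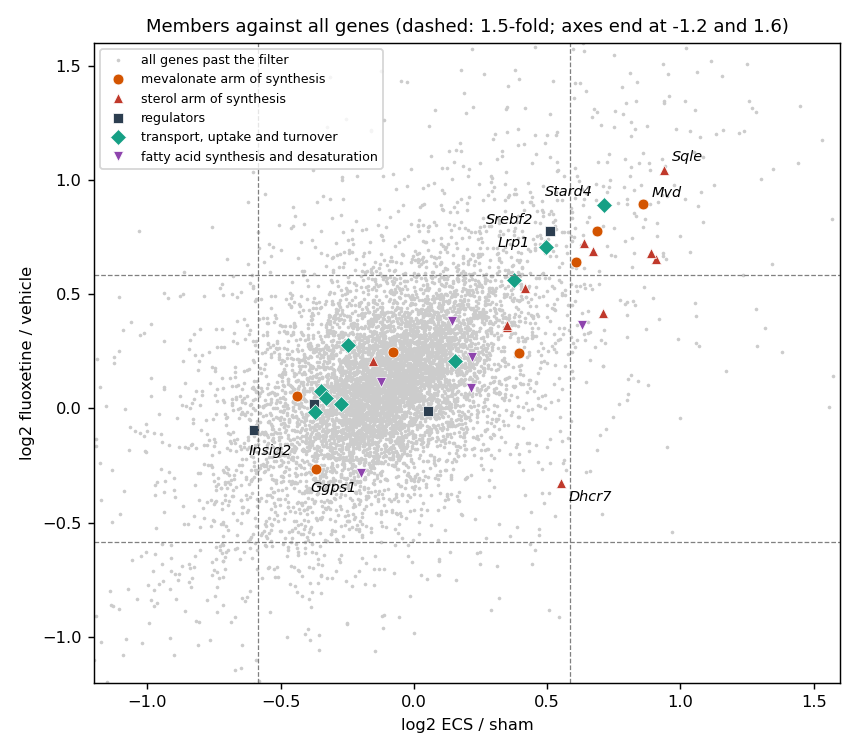
Log2 ECS over sham (x axis) against log2 fluoxetine over vehicle (y axis), 1 point per gene past the filter (small grey) and the 37 members by class (coloured) and 1.5-fold as dashed lines; genes beyond the axes are not drawn. The 9 members higher with both stand in the upper right, and Dhcr7, at 0.55 and -0.33, lies apart from the other members.

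Several members were measured more than once, by probe sets at other places on the transcript. Of the 37, 16 had at least 2 probe sets past the filter, and the sign was the same in all of a gene's probe sets for 14 genes with ECS, for 14 with fluoxetine and for 12 with both. All 4 probe sets of Hmgcs1 were past 1.5-fold in both comparisons, at 0.69 to 0.91 with ECS and 0.78 to 0.98 with fluoxetine; the brightest is of a kind that can bind related sequences. Both probe sets of Fdft1 (0.90 to 0.91 and 0.66 to 0.79) and both of Idi1 (0.61 to 0.63 and 0.64 to 1.00) were past it too. These repeat measurements used the same RNA, so they speak for the probe sets and not for the animals.

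In other genes the probe sets parted. The other probe set of Cyp51 was short of 1.5-fold with ECS (0.47), at 1.00 with fluoxetine, and that of Mvd was short of it with fluoxetine (0.44), at 1.13 with ECS. In that Mvd probe set the sham signal was 48.1. Its centred sham over vehicle ratio was -0.78, at a control spread of 0.28. The other probe set of Hsd17b7 gave 0.42 with ECS and 0.66 with fluoxetine, the reverse of the brightest. That of Srebf2 kept its sign, at 0.29 and 0.66. Sc5d had ECS ratios of opposite sign, from -0.49 to 0.42, and so did Lss, from -0.15 to 0.19, with 0.21 to 0.58 for fluoxetine. The -0.49 of Sc5d was from a probe set with a mean signal of 54.5, near the filter, and a control spread of 0.40. Ggps1, with 4 probe sets, was below 0 in all with ECS (-0.44 to -0.17) and on both sides of 0 with fluoxetine (-0.27 to 0.30), and Vldlr likewise (-0.52 to -0.08 and -0.47 to 0.14).

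**Figure D5:**
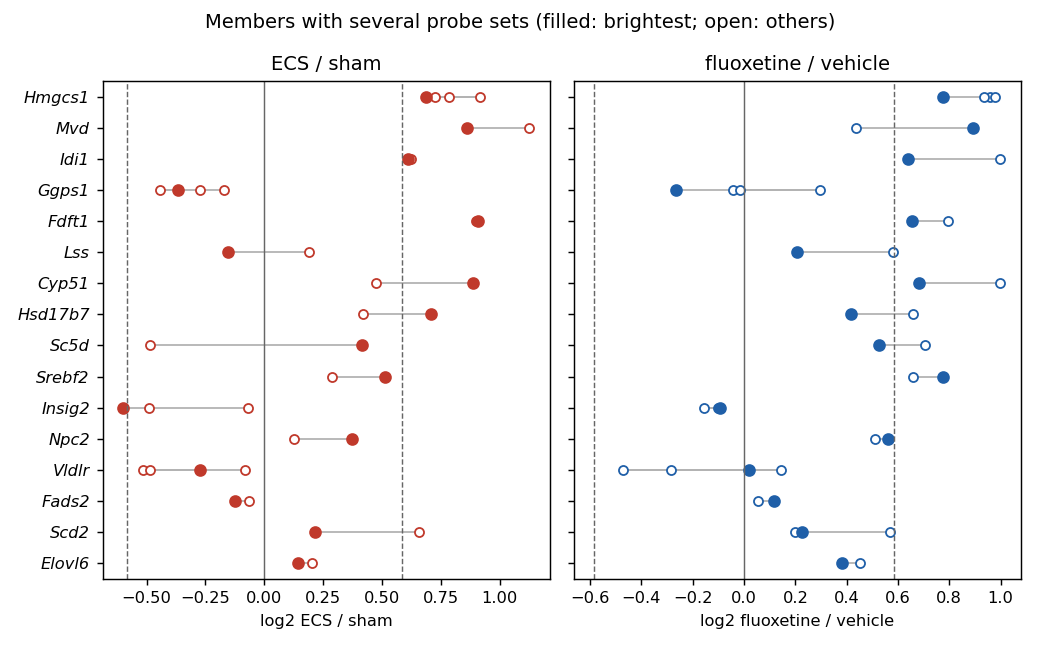
Log2 ratios of every probe set past the filter for the 16 members with at least 2, for ECS over sham (left) and fluoxetine over vehicle (right), with the brightest probe set filled, the others open and 1.5-fold dashed. All 4 probe sets of Hmgcs1 lie past 1.5-fold in both panels, while those of Sc5d lie on both sides of 0 with ECS (-0.49 to 0.42). The lower of these has a mean signal of 54.5, near the filter.

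Genes next to the pathway were counted in the same way, from lists that hold no member. Over all genes, 3.84% were higher and 6.47% lower with ECS, and 8.51% higher and 3.26% lower with fluoxetine. With each array set to its median these shares were 5.34%, 4.18%, 5.82% and 5.13%. Of 7 measured genes of SREBP processing and turnover none was past 1.5-fold with either treatment, at medians of -0.11 with ECS and 0.12 with fluoxetine. Of 6 liver X receptor genes and targets 1 was lower with ECS, of 12 intracellular sterol carriers and esterases 2 were lower with ECS, and of 10 genes of acetyl-CoA supply and fatty acid elongation 1 was lower with ECS. Of 7 genes of isoprenoid side branches 1 was lower with ECS and 1 with fluoxetine. The 1 measured gene of oxysterol synthesis was not past 1.5-fold. Of 11 lipoproteins and receptors 1 was higher and 2 were lower with ECS and 2 were higher with fluoxetine. Lrpap1, the chaperone of Lrp1 and its relatives, was past 1.5-fold with both in the same direction, with 2708.7 with ECS, against 1719.9 with sham, and 4179.9 with fluoxetine, against 2341.7 with vehicle, at log2 ratios of 0.66 and 0.84. It was the only such gene of these lists in the signals as deposited, and with each array set to its median Reln, the ligand of Vldlr and Lrp8, was another (0.64 and 0.67), named after its values were seen. The same centring left 1 gene lower with ECS among liver X receptor genes and 2 among sterol carriers, and 0 in the acetyl-CoA, isoprenoid and lipoprotein lists. In the lipoprotein list 2 were then higher with ECS. With fluoxetine it gave 1 lower liver X receptor gene, and the other fluoxetine counts were as before.

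Markers of glia were read beside these values, since glia make most of the cholesterol of the adult brain. The shares over all genes were 3.84% higher and 6.47% lower with ECS, and 8.51% higher and 3.26% lower with fluoxetine. Of 8 astrocyte markers, Gfap was higher with both treatments, with 601.5 with ECS, against 127.4 with sham, and 1048.0 with fluoxetine, against 195.0 with vehicle; Aqp4 was also higher with fluoxetine and Slc1a3 was lower with ECS. The 8 signals summed to 13481 with ECS, against 14266 with sham, and to 22542 with fluoxetine, against 19487 with vehicle, at medians of 0.05 and 0.27. Of 8 measured markers of oligodendrocytes and myelin none was past 1.5-fold, at medians of -0.04 and 0.31 and sums of 10320 with ECS, against 10432 with sham, and 16569 with fluoxetine, against 14528 with vehicle. Of 9 microglia markers 2 were lower with ECS and 4 were higher with fluoxetine, at sums of 3809 with ECS, against 4150 with sham, and 8053 with fluoxetine, against 5807 with vehicle. The 5 markers of oligodendrocyte precursors had medians of -0.40 with ECS and -0.23 with fluoxetine, with 0 and 1 lower. They summed to 1303 with ECS, against 1443 with sham, and 1629 with fluoxetine, against 1836 with vehicle. Olig1 made up most of the ECS and sham sums, at 867.0 and 851.3. With each array set to its median, the log2 ratio of the sums for ECS was 0.03 for astrocytes, 0.09 for myelin, -0.02 for microglia and -0.04 for precursors. The markers lower with ECS then came to 0 in all 4 lists. For fluoxetine these ratios were 0.09, 0.06, 0.35 and -0.30 in the same order, with 3 microglia markers higher and 2 precursor markers lower. None of the measured markers of these 4 lists was at 0. The part of these cells in the members' values was not tested for ECS or for fluoxetine.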

How the data were processed

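RNA of the DG was pooled by group and hybridised to 4 GeneChip mouse genome 430A 2.0 arrays, 1 each for ECS, sham, fluoxetine and vehicle. The deposited values are signal intensities on a linear scale, which the authors computed with MAS5, the Affymetrix algorithm that joins the probes of a probe set into 1 value. They were not brought to a common scale, and the genome build behind the probe sets is not given in the sources used here. All per-sample columns of the table were used.

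Groups were taken from the sample labels. Signals were compared within each pair as log2 ratios, ECS over sham and fluoxetine over vehicle, in pandas 2.3.3 and numpy 2.4.6 under Python 3.11.15, with correlations from scipy 1.17.1 and plots from matplotlib 3.10.9. Of 22690 probe sets, 64 controls were left out. Probe sets whose intensity averaged 50 or more on the 4 arrays were retained (13422), after the study's methods, and a gene was given by its brightest probe set. Gene names came from the platform annotation, in which 20380 probe sets have 1 gene, 691 several and 1555 none, and only the first kind were named. A change was at least 1.5-fold. No test was run, since each group has 1 array, which also limits the precision. The ratio of sham to vehicle was centred on its median. The steps were tested on simulated data.

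The members and lists were chosen with earlier results of these data known. Every member past the filter was described, and of the neighbouring lists the genes past 1.5-fold in the same direction with both treatments were named. Promoters were to be shown for members higher with both and for Insig1 and Insig2; as Insig1 was not measured, that pair was left out. Other genes, markers and Mvk's promoter were chosen after their values were seen. Of the 37 measured members, 28 had a RefSeq promoter, and Fdps, Fdft1, Sqle, Stard4, Npc1, Abcg1, Fads1, Scd1 and Scd2 had none in the table used. Alternatives were other signal filters, median-centring, quantile normalization, a floor of 50, a pseudocount of 16, other choices among probe sets, exchanged control arrays, and sizes of 1.2-fold and 2-fold.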

Additional observations from a re-analysis of the deposited data

How the results depend on the processing

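The 4 arrays hold 1 pool per group, so differences between mice could not be measured, and no value has an error across animals. No paired analysis was possible because each group has 1 array. No member's ratio changed its call from higher to lower or the reverse. Of 716 ratios of single members recomputed under the alternatives, 665 stayed within the control spread of the main value and 51 moved by more, 28 of these with the control arrays exchanged. Other signal filters (74, 74 and 58 ratios) could not move a ratio, since each member kept its brightest probe set. The floor of 50 (74 ratios) could not either, as the lowest signal of these probe sets was 60.2. These ratios therefore say nothing about stability. At 1.2-fold, ECS had 19 members higher and 8 lower, fluoxetine 19 higher and 3 lower, and 17 were higher with both; at 2-fold, ECS had 0 higher and 0 lower, fluoxetine 1 higher, and 0 were higher with both. The single member lower with ECS, Insig2, was lost (0 members) with arrays median-centred or quantile-normalized, with a pseudocount of 16, with the mean of all probe sets of a gene and with control arrays exchanged. Members higher with fluoxetine came to 6 after median-centring and 5 after quantile normalization, where 5 were higher with both. Of these 5, 4 were among the 9 of the signals as deposited, as were 6 of 7 with the control arrays exchanged, 7 of 7 at a mean signal of at least 200, where Mvd and Stard4 were left out, and 7 of 7 without the probe sets that can bind related sequences, where Msmo1 and Mvd were lost. The median log2 ECS over sham of the transport genes moved to -0.046 with no signal filter, -0.060 without those probe sets and -0.047 with the control arrays exchanged, and the fluoxetine median to 0.052 with those arrays exchanged. With no signal filter, Lrp8 entered, so that median was over 10 transport genes in place of 9, with no single ratio changed. The cause of the other shifts was not tested.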

Other observations

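In the lists next to the pathway, Reln, the ligand of Vldlr and Lrp8, was chosen after its values were seen. It had a signal of 717.8 with ECS, against 497.7 with sham, and 1021.9 with fluoxetine, against 587.2 with vehicle, at log2 ratios of 0.53 and 0.80, or 0.64 and 0.67 with each array set to its median, which is past 1.5-fold with both. Of these receptors, Vldlr had ratios of -0.27 and 0.02, and Lrp8 was below the signal filter. The centred sham over vehicle ratio of Reln was 0.27, at a control spread of 0.15.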
